A study of Rattus norvegicus with 9 samples.

Results

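The clock output transcription factors are 7 rat genes whose RNA follows the circadian clock, Dbp, Tef, Hlf, Nfil3, Bhlhe40, Bhlhe41 and Ciart. They were taken by symbol from the 36267 features of a kidney gene table, each symbol matched 1 row, and all 7 were among the 16731 features tested (at least 1 CPM, a read count scaled to library depth, in at least 3 libraries). RNA was sequenced from the kidneys of 9 rats of 180 to 200 g in 3 groups of 3. The icariin group received icariin, a flavonoid glycoside of Epimedium plants, at 100 mg/kg into the stomach on each of 3 days, followed by the protocol of contrast-induced acute kidney injury (CIAKI). The CIAKI group went through that protocol alone. It consisted of the diuretic furosemide by gavage (200 mg/kg), 6 h of dehydration, and an intravenous dose (15 mL/kg) of iopromide, a contrast medium for X-ray imaging that contained iodine at 370 mg/mL. Control rats were untreated, so icariin without contrast was not among the groups. The sources used here do not give the strain, sex or age of the rats, or the hour at which kidneys were taken. Levels of these genes follow the time of day, and the part of that hour in the results was not tested.

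In mammals, the transcription factors CLOCK and BMAL1 drive a daily feedback loop by binding E-boxes, and PER and CRY proteins inhibit them. DBP, TEF and HLF are the PAR bZIP factors, activators that bind D-boxes and carry the rhythm to other genes, among them genes of detoxification and of transport. NFIL3 (E4BP4) binds the same D-boxes as a repressor. BHLHE40 and BHLHE41 (DEC1 and DEC2) are E-box repressors of the bHLH-Orange family, and CIART (CHRONO) is a repressor of CLOCK and BMAL1. In rodent kidney the clock is known for its hold on sodium and water transport.

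Kidney markers were found in all libraries. The 6 proximal tubule markers (Slc34a1, Lrp2, Cubn, Aqp1, Slc5a2 and Slc22a6) summed to 18255 to 19619 CPM in icariin, 8112 to 11399 CPM in CIAKI and 18237 to 21611 CPM in control libraries. The 4 markers of the thick ascending limb summed to 4900 to 6125 CPM in icariin, 3713 to 5587 CPM in CIAKI and 3710 to 6318 CPM in control libraries. Of the 4 markers of the distal and connecting tubule Pvalb was at 0 in all libraries, and the others summed to 741 to 895 CPM in icariin, 758 to 830 CPM in CIAKI and 1258 to 1377 CPM in control libraries. Depth differed between libraries, so that 1 CPM was worth 64.4 reads in the shallowest and 90.4 reads in the deepest. In whole kidney, fewer cells of a type and less RNA per cell cannot be told apart.

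Promoter sequence, the 250 bases before the RefSeq start in build GRCr8, was found for 6 of the 7 genes (not for Hlf), and is shown for the 4 that hold an E-box. Capitals mark the E-box CACGTG, which reads the same on both strands. The bases run 5′ to 3′ on the strand of the gene.
Ciart, minus strand, chr2:186112247-186112496: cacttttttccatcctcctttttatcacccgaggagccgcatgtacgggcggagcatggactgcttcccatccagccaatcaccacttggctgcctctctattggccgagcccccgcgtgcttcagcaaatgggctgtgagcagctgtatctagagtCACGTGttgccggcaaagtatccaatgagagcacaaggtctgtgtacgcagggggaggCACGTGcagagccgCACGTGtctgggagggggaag
Tef, plus strand, chr7:115206577-115206826: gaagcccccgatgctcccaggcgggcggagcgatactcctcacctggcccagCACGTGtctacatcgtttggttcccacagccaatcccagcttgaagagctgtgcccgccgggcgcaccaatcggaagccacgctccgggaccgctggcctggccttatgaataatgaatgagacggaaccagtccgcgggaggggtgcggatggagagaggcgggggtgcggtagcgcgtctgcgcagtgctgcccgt
Bhlhe41, minus strand, chr4:180569356-180569605: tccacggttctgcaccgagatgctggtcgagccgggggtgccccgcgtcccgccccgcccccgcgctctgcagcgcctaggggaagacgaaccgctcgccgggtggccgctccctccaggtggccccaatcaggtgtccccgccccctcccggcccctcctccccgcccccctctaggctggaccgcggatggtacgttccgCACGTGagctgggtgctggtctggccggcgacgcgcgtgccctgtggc
Bhlhe40, plus strand, chr4:143174200-143174449: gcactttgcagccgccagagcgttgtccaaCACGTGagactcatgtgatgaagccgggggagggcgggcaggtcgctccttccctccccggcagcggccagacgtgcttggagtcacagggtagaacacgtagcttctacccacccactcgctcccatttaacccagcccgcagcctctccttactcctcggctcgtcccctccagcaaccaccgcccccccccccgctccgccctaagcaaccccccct
The Ciart window held 3 E-boxes, beginning 93, 35 and 21 bases before the start. The E-box of Tef began 198, that of Bhlhe41 48 and that of Bhlhe40 220 bases before it, and the windows of Dbp and Nfil3 held none. Of 33469 rat promoter windows of this length, 5.59% held at least 1 E-box and 17 windows (0.0508%) held at least 3. The D-box, searched as TTATGTAA and TTACGTAA on both strands, was in none of the 6 windows and in 0.932% of all. A match of letters is a description of the window and not a measured site. Bases outside these windows were not searched, so a window without an E-box does not mean a gene without one.

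The first comparison asked how the contrast protocol changed these genes. In CIAKI kidneys the PAR bZIP activators Dbp, Tef and Hlf and the repressor Bhlhe41 fell, and the D-box repressor Nfil3 rose. Dbp was 4.29-fold lower and Nfil3 5.02-fold higher in mean CPM, the Nfil3 fold being 3.02 without CIAKI 2. With limma on log2(CPM + 1), 5 of the 7 passed an adjusted p of 0.05 (Benjamini-Hochberg over all tested features), 1 higher and 4 lower, beside 41.3% of all tested features (20.8% higher and 20.5% lower). Their median log2 fold change was -0.44, against -0.0027 over all features. Bhlhe40 and Ciart did not pass.

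The second comparison addressed icariin given ahead of the contrast protocol. Relative to CIAKI kidneys, Dbp, Tef, Hlf, Bhlhe41 and Ciart rose and Nfil3 fell. Dbp was 7.25-fold higher and Nfil3 6.26-fold lower in mean CPM, the Nfil3 fold being 3.77 without CIAKI 2. In this comparison 6 of the 7 passed, 5 higher and 1 lower, beside 39.4% of all features (19.2% higher and 20.2% lower), and the median was 1.18 against 0.017. The CIAKI libraries enter this comparison and the first, so the opposite directions are not independent.

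The third comparison set icariin kidneys against untreated ones. Tef rose 1.66-fold and was the only one of the 7 to pass, in a comparison that called 0.628% of all features (0.4% higher and 0.227% lower). The call of Tef ended in 11 of 18 alternatives, each of those that left out a library among them. Hlf lay 1.78-fold, Dbp 1.69-fold and Ciart 3.12-fold higher in mean CPM without passing, with unadjusted p of 0.00040, 0.0155 and 0.0021 in the limma test. The median log2 fold change of the 7 was 0.71, against -0.0015 over all features. The icariin libraries of this comparison are those of the second and the control libraries those of the first.

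**Figure D1:**
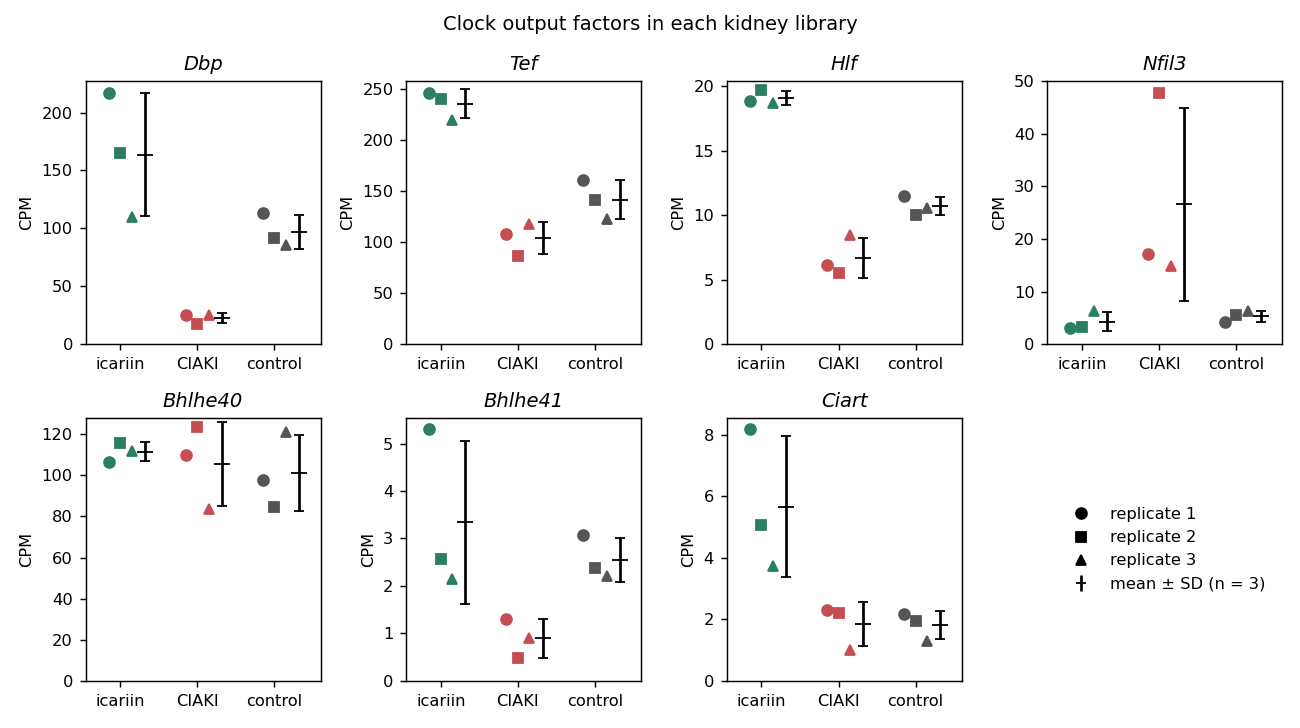
Level of each of the 7 genes in CPM (y axis, from 0) in each library of the icariin, CIAKI and control groups (x axis). Symbols mark replicates and the bar beside them the mean ± SD of 3 libraries. Dbp, Tef and Hlf are lowest in CIAKI and highest on average in icariin libraries, Nfil3 is highest in CIAKI, and Bhlhe40 lies between 83.5 and 123 CPM throughout.

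Dbp, the activator named for the D-box of the albumin promoter, had 217, 165 and 109.8 CPM in icariin libraries 1, 2 and 3, 24.9, 17.4 and 25.5 CPM in CIAKI libraries and 114, 91.4 and 85.4 CPM in control libraries. Each CIAKI library lay below each library of the other groups, while icariin 3 lay below control 1. The means were 164 ± 53.4 CPM in icariin, 22.6 ± 4.52 CPM in CIAKI and 96.8 ± 14.9 CPM in control kidneys (SD, n = 3 each). Against control, the log2 fold change in CIAKI was -2.06 (SE 0.24, limma adjusted p = 0.00029). Icariin against CIAKI gave 2.77 (SE 0.24, limma adjusted p = 9.8e-05), which ranked 154 of 16731 features by p. Icariin against control gave 0.71 (95% interval 0.17 to 1.25, limma adjusted p = 0.31).

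Tef, the thyrotroph embryonic factor, had 247, 241 and 220.1 CPM in icariin libraries, 108, 86.8 and 117 CPM in CIAKI libraries and 161, 141 and 123 CPM in control libraries. None of the 3 groups overlapped another, with icariin highest, control between and CIAKI lowest. Tef averaged 236 ± 14.0 CPM in icariin, 104 ± 15.7 CPM in CIAKI and 142 ± 18.9 CPM in control kidneys (SD, n = 3 each). The log2 fold change was -0.44 for CIAKI against control (SE 0.13, limma adjusted p = 0.021) and 1.18 for icariin against CIAKI (SE 0.13, limma adjusted p = 0.00025). It was 0.74 for icariin against control (SE 0.13, limma adjusted p = 0.045). The first of these calls ended without control 1, control 2 or CIAKI 2 (adjusted p = 0.077, 0.055 and 0.058). For the third, leaving out a library gave adjusted p = 0.069 to 0.18 and log2 fold changes of 0.64 to 0.83.

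Hlf, the hepatic leukaemia factor, had 18.9, 19.7 and 18.7 CPM in icariin libraries, 6.12, 5.51 and 8.43 CPM in CIAKI libraries and 11.5, 10.1 and 10.6 CPM in control libraries. Again no group overlapped another, in the same order as for Tef. Means were 19.1 ± 0.528 CPM in icariin, 6.69 ± 1.54 CPM in CIAKI and 10.7 ± 0.715 CPM in control kidneys (SD, n = 3 each). CIAKI against control lay at -0.62 (SE 0.14, limma adjusted p = 0.0080) and icariin against CIAKI at 1.40 (SE 0.14, limma adjusted p = 0.00020). Icariin against control lay at 0.78 (95% interval 0.45 to 1.10, limma adjusted p = 0.056), just short of the threshold. That value passed in 5 alternatives, with a filter at 5 CPM (adjusted p = 0.045), a pseudocount of 4 (0.039), quantile normalization (0.044), the fit on those 2 groups alone (0.017) and DESeq2 on recovered reads (0.00021), and over all alternatives adjusted p ran up to 0.21.

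Beside the fall of Dbp, Tef and Hlf in CIAKI kidneys, the summed proximal tubule markers given above were also lower in CIAKI than in control libraries. Of the 6 markers 4 passed as lower, beside 20.5% of all features. In icariin against CIAKI 5 of 6 markers passed as higher, beside 19.2% of all features. Between icariin and control libraries the ranges of that sum overlapped and the median log2 fold change of the 6 markers was 0.0065. All 4 podocyte markers passed as lower in CIAKI against control and 3 as higher in icariin against CIAKI. Their sums were 607 to 776 CPM in icariin, 499 to 513 CPM in CIAKI and 770 to 835 CPM in control libraries. Of 3 endothelial markers tested, 2 passed as lower and 1 as higher in these comparisons, and of 4 thick ascending limb markers 1 and 1. Of 3 distal and connecting tubule markers tested, 2 passed as lower in CIAKI and 0 passed in icariin against CIAKI. Among them Calb1 was also lower in icariin against control, by a log2 fold change of -1.32 (limma adjusted p = 0.0029). The 5 collecting duct markers summed to 853 to 1161 CPM in icariin, 645 to 969 CPM in CIAKI and 639 to 693 CPM in control libraries, so that icariin lay above control without overlap. That difference lay in Aqp2 (means of 485 CPM in icariin and 199 CPM in control kidneys) and Aqp3 (224 and 132 CPM). Atp6v1b1 (131 and 159 CPM) and Avpr2 (13.2 and 14.7 CPM) went the other way, and Slc4a1 averaged 166 and 162 CPM. Of the 5 collecting duct markers only Aqp2 passed in icariin against control, and it is also in the list of clock-controlled tubule genes below. The part of cell composition in the results was not tested.

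Nfil3, the repressor at D-boxes, had 3.08, 3.33 and 6.34 CPM in icariin libraries, 17.1, 47.7 and 14.9 CPM in CIAKI libraries and 4.15, 5.50 and 6.25 CPM in control libraries. Each CIAKI library was above each other library, and CIAKI 2 stood far above CIAKI 1 and CIAKI 3. Nfil3 averaged 4.25 ± 1.81 CPM in icariin, 26.6 ± 18.3 CPM in CIAKI and 5.30 ± 1.06 CPM in control kidneys (SD, n = 3 each). CIAKI against control gave a log2 fold change of 1.95 (SE 0.41, limma adjusted p = 0.0049), and 1.45 without CIAKI 2 (adjusted p = 0.0050). Icariin against CIAKI gave -2.25 (SE 0.41, limma adjusted p = 0.0026), and -1.75 without CIAKI 2 (adjusted p = 0.0026). Icariin against control gave -0.30 (95% interval -1.22 to 0.61, limma adjusted p = 0.89).

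Nfil3 is also a gene of lymphoid and natural killer cells. The 9 lymphocyte and natural killer cell markers summed to 14.8 to 24.5 CPM in icariin, 6.09 to 9.57 CPM in CIAKI and 25.9 to 29.2 CPM in control libraries, and 7 of the 9 averaged under 1 CPM over all libraries. That sum was carried mainly by Cd4, with means of 16.5 CPM in icariin, 6.94 CPM in CIAKI and 18.5 CPM in control kidneys. For the natural killer cell markers Nkg7 and Klrd1 the means were 0.672 and 0.280 CPM in icariin, 0.220 and 0.0922 CPM in CIAKI and 1.84 and 0.389 CPM in control kidneys. The 5 macrophage markers summed to 62.1 to 86.0 CPM in icariin, 36.5 to 48.9 CPM in CIAKI and 77.5 to 86.4 CPM in control libraries. Both sums were lowest in the group in which Nfil3 was highest, but the macrophage sum was carried mainly by Csf1r. It averaged 48.2 CPM in icariin, 24.9 CPM in CIAKI and 49.1 CPM in control kidneys. Adgre1 (12.9, 4.50 and 18.5 CPM) and C1qa (11.6, 7.89 and 9.25 CPM, without passing) were also lowest in CIAKI. Named after their values were seen, Cd68 averaged 3.56 CPM in icariin, 4.93 CPM in CIAKI and 3.95 CPM in control kidneys, and Cd163 0.610 CPM in icariin, 1.59 CPM in CIAKI and 0.343 CPM in control kidneys, both highest on average in CIAKI. Cd68 did not pass in CIAKI against control or icariin against CIAKI (limma adjusted p = 0.50 and 0.28), and Cd163 lay under the filter and was not tested. The 4 neutrophil markers summed to 0.495 to 1.88 CPM in icariin, 2.20 to 3.82 CPM in CIAKI and 1.08 to 3.30 CPM in control libraries. CIAKI lay above icariin without overlap, while CIAKI and control overlapped. Means in icariin, CIAKI and control kidneys were 0.113, 0.582 and 0.161 CPM for S100a8 and 0.125, 0.502 and 0.0669 CPM for S100a9. They were 0.870, 1.45 and 1.10 CPM for Csf3r, and all 3 genes were highest on average in CIAKI. Mpo was highest in control (0.0840, 0.301 and 0.806 CPM). Only Csf3r was tested, and it did not pass in CIAKI against control or icariin against CIAKI (limma adjusted p = 0.41 and 0.15). The part of these cells in the Nfil3 result was not tested.

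Read counts of an activator over those of Nfil3 within a library do not depend on library scaling. Dbp had 70.3, 49.5 and 17.3 reads per Nfil3 read in icariin libraries, 1.45, 0.364 and 1.71 in CIAKI libraries and 27.4, 16.6 and 13.7 in control libraries. Tef had 34.7 to 80.1 reads per Nfil3 read in icariin, 1.82 to 7.87 in CIAKI and 19.7 to 38.8 in control libraries. For Hlf the ratio was 2.95 to 6.12 in icariin, 0.116 to 0.565 in CIAKI and 1.70 to 2.76 in control libraries. All 3 ratios were lower in each CIAKI library than in any other, and that of Hlf was higher in each icariin library than in any control library. CIAKI 2 held the lowest of each ratio. These ratios are given without a test, since they combine members of the list.

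**Figure D2:**
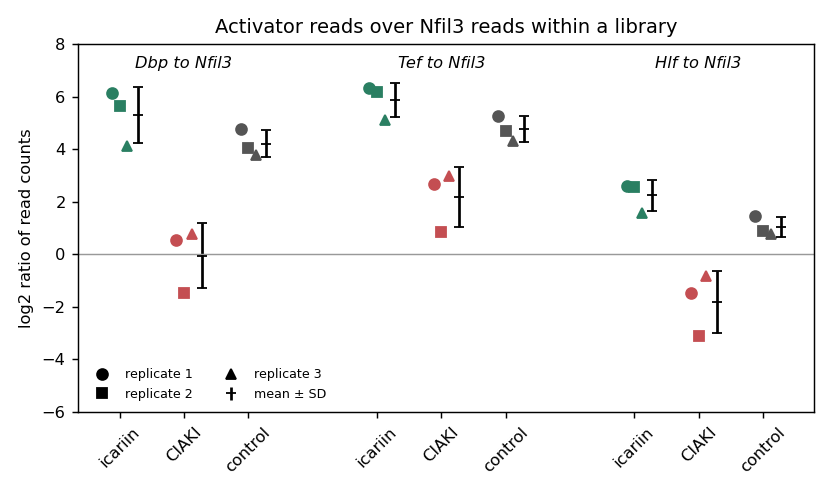
Log2 ratio of Dbp, Tef or Hlf reads to Nfil3 reads within each library (y axis) in the icariin, CIAKI and control groups (x axis), with symbols for replicates and bars for the mean ± SD of 3 libraries. For Dbp the mean is 5.29 in icariin, -0.049 in CIAKI and 4.20 in control libraries.

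Bhlhe40, the hypoxia- and clock-responsive repressor DEC1, had 107, 116 and 112 CPM in icariin libraries, 109.7, 123 and 83.5 CPM in CIAKI libraries and 97.8, 84.5 and 121 CPM in control libraries. The 3 groups overlapped one another. CIAKI against control gave 0.059 (95% interval -0.30 to 0.41, limma adjusted p = 0.79), icariin against CIAKI 0.095 (-0.26 to 0.45, adjusted p = 0.66) and icariin against control 0.15 (-0.20 to 0.51, adjusted p = 0.84).

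Bhlhe41, which encodes the related repressor DEC2, had 5.30, 2.58 and 2.15 CPM in icariin libraries, 1.31, 0.476 and 0.901 CPM in CIAKI libraries and 3.07, 2.37 and 2.21 CPM in control libraries. Each CIAKI library lay below every other, icariin and control libraries overlapped, and icariin 1 stood above the rest. The lowest value rested on 32 reads in CIAKI 2 (exact Poisson 95% interval 0.325 to 0.671 CPM, counting error only). CIAKI against control gave -0.92 (SE 0.28, limma adjusted p = 0.025) and icariin against CIAKI 1.15 (SE 0.28, limma adjusted p = 0.0099). At such low levels log2(CPM + 1) understates a change, and edgeR's quasi-likelihood test on recovered reads gave -1.51 (adjusted p = 0.023) and 1.90 (adjusted p = 0.0097), while a pseudocount of 4 gave -0.42 and 0.56. The CIAKI call ended with no filter on low values (adjusted p = 0.055), with quantile normalization (0.067) and without control 1, control 2, CIAKI 2 or CIAKI 3 (0.081, 0.054, 0.080 and 0.051). Icariin against control gave 0.23 (95% interval -0.39 to 0.85, limma adjusted p = 0.87).

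Ciart, whose promoter window held 3 E-boxes, had 8.20, 5.07 and 3.73 CPM in icariin libraries, 2.30, 2.21 and 1.01 CPM in CIAKI libraries and 2.18, 1.95 and 1.31 CPM in control libraries. CIAKI and control libraries overlapped, and each icariin library lay above both. Means were 5.66 ± 2.29 CPM in icariin, 1.84 ± 0.721 CPM in CIAKI and 1.81 ± 0.452 CPM in control kidneys (SD, n = 3 each). Icariin against CIAKI gave 1.21 (SE 0.28, limma adjusted p = 0.0090), and 0.71 with a pseudocount of 4 (adjusted p = 0.0088). CIAKI against control gave -0.0082 (95% interval -0.65 to 0.63, limma adjusted p = 0.98). Icariin against control gave 1.20 (95% interval 0.56 to 1.84, limma adjusted p = 0.13), and on recovered reads edgeR gave 1.64 (adjusted p = 0.17) and DESeq2 1.63 (adjusted p = 0.0058).

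**Figure D3:**
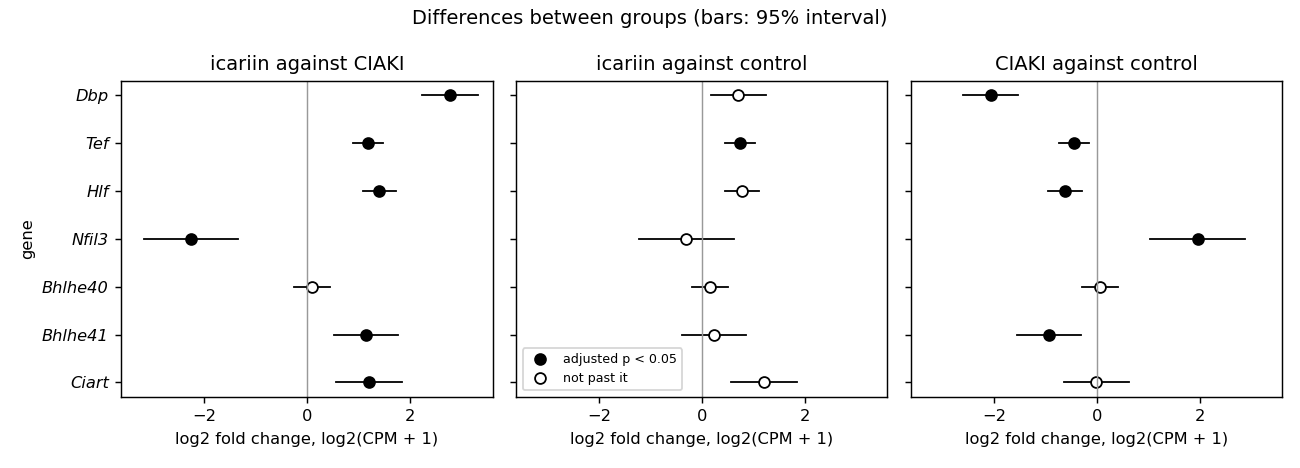
Log2 fold change on the log2(CPM + 1) scale (x axis) of each gene (y axis) for icariin against CIAKI, icariin against control and CIAKI against control, with 95% intervals from limma. Filled circles mark an adjusted p below 0.05, which 6, 1 and 5 of the 7 genes reached in the 3 panels.

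Counted by libraries, the CIAKI and control groups did not overlap for 5 of 7 genes, beside 53.4% of all features (26.9% with CIAKI above and 26.5% with CIAKI below). The icariin and CIAKI groups did not overlap for 6 of 7 genes, beside 50.7% of all features (24.9% with icariin above and 25.9% with icariin below). For icariin and control this held for 3 of 7 genes, Tef, Hlf and Ciart, each with icariin above, beside 19.3% of all features (9.12% above and 10.2% below). Within a group, the same library was often extreme for several genes. Control 1 was highest of its group for Dbp, Tef, Hlf, Bhlhe41 and Ciart and lowest for Nfil3. Icariin 3 was lowest of its group for Dbp, Tef, Hlf, Bhlhe41 and Ciart and highest for Nfil3. CIAKI 2 was lowest for Dbp, Tef, Hlf and Bhlhe41 and highest for Nfil3 and Bhlhe40. Nr1d1, the clock repressor REV-ERB alpha, named after its values were seen, had 74.0, 56.8 and 23.5 CPM in icariin libraries, 23.8, 27.4 and 19.5 CPM in CIAKI libraries and 74.6, 54.6 and 77.8 CPM in control libraries. Its lowest icariin library was again icariin 3, which lay within the CIAKI range. In the other groups Nr1d1 was highest in CIAKI 2 and control 3, the libraries in which Dbp and Tef were lowest.

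Levels can be compared between genes only per length. The authors' selected mRNA table gives FPKM (fragments scaled to transcript length and library depth) in icariin and CIAKI libraries for 6 of the 7 genes, all but Bhlhe40. In icariin kidneys Dbp led with 79.2 ± 25.2 FPKM, ahead of Tef at 44.7 ± 2.03 and Hlf at 16.9 ± 0.301 FPKM (SD, n = 3), and the ranges of these 3 did not overlap. Ciart (3.10 ± 1.19 FPKM), Bhlhe41 (2.19 ± 1.11 FPKM) and Nfil3 (1.71 ± 0.757 FPKM) came last with overlapping ranges. In CIAKI kidneys the order was Tef at 19.2 ± 2.92, Dbp at 11.0 ± 2.16, Nfil3 at 10.5 ± 7.31 and Hlf at 5.79 ± 1.41 FPKM, with Ciart at 0.988 ± 0.382 and Bhlhe41 at 0.567 ± 0.255 FPKM. Tef stood above Dbp in every CIAKI library, while the range of Nfil3 (5.93 to 18.9 FPKM) overlapped those of Tef, Dbp and Hlf.

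Other genes of the pathway were taken from 5 lists of 49 genes, of which 41 were tested, and values given for them are log2 fold changes unless in CPM. Their counts stand beside 41.3% of all features called in CIAKI against control (20.8% higher and 20.5% lower). For icariin against CIAKI that share was 39.4% (19.2% higher and 20.2% lower), and for icariin against control 0.628% (0.4% higher and 0.227% lower). Of 15 core clock genes, 3 rose, 4 fell and 8 did not pass in CIAKI against control (median 0.17), and 5 rose, 5 fell and 5 did not pass in icariin against CIAKI (median 0.033). Against control, 5 rose and 3 fell in icariin kidneys and 7 did not pass (median 0.37), in the comparison that called 0.628% of all features. The genes that rose were Cry1 (1.17), Per1 (0.74), Per2 (1.07), Per3 (0.73) and Rora (0.42), which encode the clock's inhibitors and a nuclear receptor that activates Arntl. Those that fell were Npas2 (-2.10), Arntl (-1.55) and Clock (-0.50), which encode activators of the loop. The number called ran from 2 to 10 over the alternatives, and Cry1 and Npas2 passed in all 18. Calls in this comparison ended in 14 of 18 alternatives for Clock, Per1 and Rora, in 9 for Per3, in 4 for Per2 and in 3 for Arntl.

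Arntl, which encodes BMAL1, had 3.26, 4.05 and 5.95 CPM in icariin libraries, 20.2, 23.0 and 16.3 CPM in CIAKI libraries and 13.6, 15.9 and 14.3 CPM in control libraries. Its icariin libraries lay below all others. Per2, a clock inhibitor, had 119, 129.8 and 119 CPM in icariin libraries, 49.5, 67.2 and 74.1 CPM in CIAKI libraries and 59.5, 52.0 and 63.1 CPM in control libraries, and CIAKI and control overlapped. Cry1, the other kind of inhibitor, was highest in CIAKI, with 15.7, 16.5 and 19.0 CPM in icariin libraries, 27.0, 27.6 and 23.7 CPM in CIAKI libraries and 6.12, 6.92 and 8.14 CPM in control libraries. In CIAKI against control Cry1 rose by 1.75, Per1 by 0.71 and the kinase gene Csnk1d by 0.55. The 4 that fell were Nr1d1 (-1.51), Npas2 (-1.08), Per3 (-0.42) and Nr1d2 (-0.37), and the call of Per3 ended in 2 of 18 alternatives.

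Among 8 genes described as targets of PAR bZIP factors in mice, 6 were tested. In CIAKI kidneys 4 rose and 1 fell (median 0.94), beside 20.8% of all features higher and 20.5% lower, while Dbp, Tef and Hlf fell. The 4 were the efflux pump genes Abcc2 (4.81) and Abcb1a (2.09), Alas1 (1.23), the first enzyme of haem synthesis, and Por (0.64), the electron donor of cytochrome P450 enzymes. In icariin against CIAKI 2 rose and 3 fell (median -0.36), with Abcc2 at -4.81, Abcb1a at -1.80 and Alas1 at -0.63. Ppara and Pdxk, named after their values were seen, were the 2 that rose, at 0.90 and 0.85. Against control Ppara was also the gene that fell in CIAKI, at -0.61, and Pdxk lay at -0.28 without passing. Against control Por alone rose in icariin kidneys (0.56, adjusted p = 0.045), a call that ended in 12 of 18 alternatives (adjusted p up to 0.18).

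Of 11 clock-controlled transport genes and regulators of the tubule, 6 rose, 2 fell and 3 did not pass in CIAKI kidneys (median 0.65), against 41.3% of all features called. The glycine transporter gene Slc6a9 lay at 2.61, the water channel gene Aqp4 at 1.86, Tsc22d3, a glucocorticoid-induced regulator, at 1.04 and the sodium-proton exchanger gene Slc9a3 at -1.27. In icariin against CIAKI 3 rose and 3 fell (median -0.030), with Slc9a3 at 1.53, Aqp4 at -1.48 and Slc6a9 at -2.22. Against control 3 rose in icariin kidneys, beside 0.4% of all features. They were the clock-controlled deubiquitinase gene Usp2 (1.54), Aqp2 (1.26) and Tsc22d3 (1.01). Usp2 averaged 79.8 ± 12.03 CPM in icariin, 42.9 ± 8.99 CPM in CIAKI and 26.7 ± 2.25 CPM in control kidneys (SD, n = 3 each) and passed in all 18 alternatives. The calls of Tsc22d3 and Aqp2 ended in 9 and 8 of them.

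Of 5 tested C/EBP factors, bZIP proteins of another branch, 2 rose in CIAKI, Cebpg (0.59) and Cebpd (1.03), and 0 fell. Over all features 20.8% were higher and 20.5% lower, and the share of C/EBP factors called was near the 41.3% called in either direction. In icariin against CIAKI 3 fell, with Cebpb at -2.08. Of 4 tested HES and HEY factors, relatives of BHLHE40 and BHLHE41, only Hes6 passed, at -1.48 in CIAKI against control and 1.24 in icariin against CIAKI. Neither list had a gene that passed limma's adjusted p in icariin against control, where 1 gene of each had an unadjusted p under 0.05. Over the alternatives, edgeR and DESeq2 included, 0 to 1 C/EBP gene and 0 HES or HEY genes passed.

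**Figure D4:**
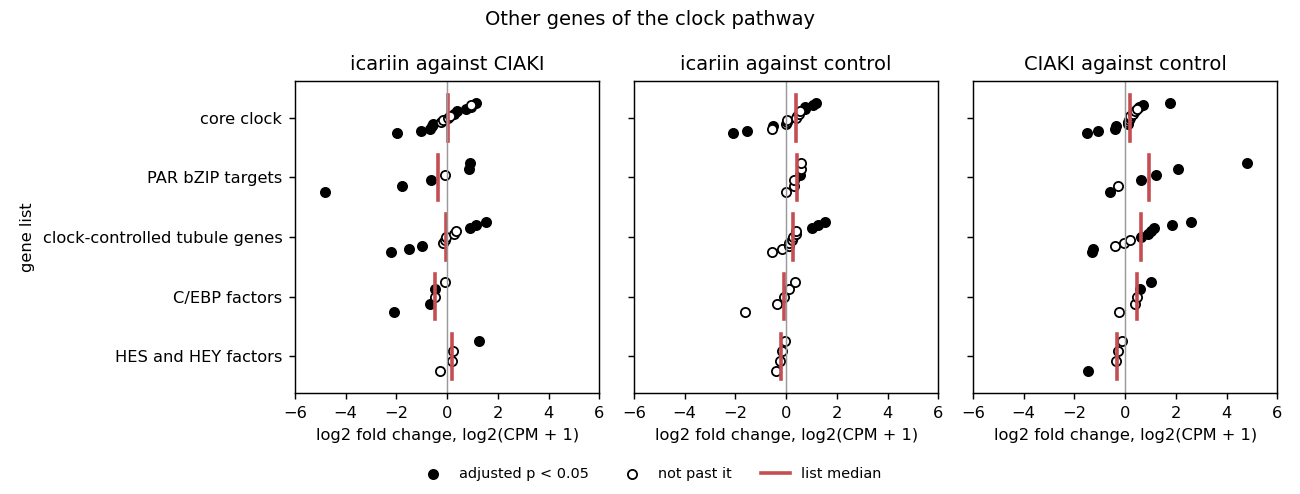
Log2 fold change on the log2(CPM + 1) scale (x axis) of each tested gene in 5 lists (y axis) for icariin against CIAKI, icariin against control and CIAKI against control. Filled circles passed an adjusted p of 0.05 and red lines are list medians. In the middle panel 8 of 15 core clock genes passed, 5 higher and 3 lower in icariin.

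Profiles over the 9 libraries were compared with those of 10306 other named genes averaging at least 5 CPM, by the root mean square distance between log2(CPM + 1) values centred on each gene's mean. Nearest to Tef were the clock gene Per3 (0.086), Rpusd3 (0.14) and Hlf (0.14), and nearest to Hlf were Tef, Rpusd3 (0.17) and Per3 (0.18). Per3 averaged 57.2 CPM in icariin, 25.3 CPM in CIAKI and 34.3 CPM in control kidneys. Nearest to Nfil3 were the uridine phosphorylase gene Upp1 (0.29), the zinc finger gene Klf6 (0.30) and the haem oxygenase gene Hmox1 (0.33), all highest in CIAKI. Dbp was nearest to the transporter gene Slc16a14 (0.36), Bhlhe41 to Bst2 (0.18) and Ciart to Gldc (0.34). Bhlhe41 and Ciart lay under the 5 CPM asked of candidates in most libraries. At that level log2(CPM + 1) understates a change, which enters their distances. A flat profile would lie at 1.21 from Dbp, 0.51 from Tef, 0.59 from Hlf, 1.11 from Nfil3, 0.58 from Bhlhe41 and 0.65 from Ciart. Distances of different members are therefore not on 1 footing. These distances are descriptions, and the centred profiles share the same 9 libraries.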

How the data were processed

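RNA came from kidneys of 9 rats, with 3 animals to a group per the series design. Per the labels' protocols, Illumina TruSeq libraries were prepared. The aligner Bowtie 0.12.2 and the build mm8 appear in the submitters' processing notes. That is a mouse build while the identifiers are rat Ensembl genes, and the sources used here give no counter, strand setting or annotation. The authors deposited the gene table in CPM. Values were whole multiples of 1 step per library, and 100% of them gave whole reads to within 0.1 read. They equalled all 23850 read counts compared with the authors' table of selected mRNAs, which was deposited with counts and FPKM for icariin and CIAKI libraries. Intervals from reads cover counting error only. On these reads edgeR called 7028 features in CIAKI against control, 6745 in icariin against CIAKI and 76 in icariin against control.

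The fit was limma 3.58.1 with an intensity trend on log2(CPM + 1), group as factor and all 9 libraries, on features reaching 1 CPM in 3 or more libraries. Tests were two-sided, adjusted by Benjamini-Hochberg over all 16731 features, with calls at an adjusted p below 0.05. Fold changes are on that log2 scale. The procedure was also run on simulated counts with the same spread for all features. There few features changed, in the CIAKI group alone and with control means of at least 5 CPM. That setting differs from these data and does not cover Bhlhe41 or Ciart. Alternatives were other pseudocounts, filters, scalings and fits, edgeR 4.0.16 and DESeq2 1.42.0 on recovered reads, each library left out, and the replicate number as a factor. Alternatives for pathway genes were added after seeing the data. Promoter sequences are from RefSeq (GRCr8). The members and lists were chosen with earlier results of these data known. Named were all 7 members, per list up to 4 genes with the smallest p in CIAKI against control and any called in icariin against control, and up to 3 genes of nearest profile. Nr1d1, Nr1d2, Ppara and Pdxk were named outside that rule, after their values were seen. So were the cell type markers given with values of their own, Cd68 and Cd163 among them. Deposited circRNA, lncRNA and miRNA tables were not used here.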

Additional observations from a re-analysis of the deposited data

How the results depend on the processing

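Of 21 results for the members (7 genes in 3 comparisons), 11 kept direction and side of the threshold in every alternative that gave a value. They include Dbp, Hlf and Nfil3 in CIAKI against control and the 6 genes called in icariin against CIAKI. A filter at 5 CPM leaves out Bhlhe41 and Ciart. In CIAKI against control the number of members called was 5 and ran from 3 to 5 when a library was left out, with 3 without control 1, control 2 or CIAKI 2. In icariin against control it was 1, against 2 with a pseudocount of 4, with a filter at 5 CPM or with those 2 groups alone, 0 with no filter, without the intensity trend or with edgeR, 4 with DESeq2 (Dbp, Tef, Hlf and Ciart), and from 0 to 0 when a library was left out. All features called there were 105, against 52 with no filter, 524 with DESeq2 and 31 to 61 when a library was left out.

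Directions turned only where no alternative made a call. Bhlhe40 in CIAKI against control gave -0.013 with upper-quartile scaling, -0.011 with quantile normalization and -0.062 to 0.22 when a library was left out. In icariin against CIAKI Bhlhe40 ran from -0.063 to 0.22 when a library was left out. Ciart in CIAKI against control gave 0.0020 with a pseudocount of 4, 0.21 with quantile normalization, 0.025 with edgeR and 0.025 with DESeq2, and ran from -0.14 to 0.22 when a library was left out. Bhlhe41 in icariin against control ran from -0.073 to 0.43 when a library was left out. The cause was not tested.

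Upper-quartile scaling left 41.8% of calls higher in CIAKI against control (50.4% as reported) and turned the balance in icariin against CIAKI to 57.2% higher (48.8% as reported). It was the scaling with the largest shift of the median of all features, -0.063. Replicate numbers were not shown to pair the libraries (correlations of same-numbered deviations -0.035 to 0.081), although 6 of 9 libraries correlated best with their own number. With the replicate block 6678, 6314 and 73 features were called in place of 6903, 6592 and 105, and 5, 6 and 1 members. The single member was Ciart (adjusted p = 0.048) in place of Tef (0.073). Leaving out a library leaves 2 in its group, and the spread is then shared with the other groups.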
